A study of Homo sapiens with 4 samples.

Results

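The chaperones described here are 10 genes of the cytosolic and mitochondrial heat shock system, chosen by name from 51714 Ensembl genes: the HSP90 genes HSP90AA1 and HSP90AB1, the HSP70 genes HSPA8, HSPA1A and HSPA1B, the HSP110 genes HSPA4 and HSPH1, the J-domain gene DNAJB1, and the mitochondrial chaperonin genes HSPD1 and HSPE1. All 10 were found once each in the count tables by symbol. RNA came from Raji, a human B lymphoma line (Burkitt type, Epstein-Barr virus positive) in wide use. R1810A cells (2 libraries) carried a vector (LS*mock) for an HA-tagged RPB1 that resists amanitin. RPB1 is the largest polypeptide of RNA polymerase II, and in these cells 1 arginine of its C-terminal domain was replaced by alanine. WT cells (2 libraries) carried the same kind of vector with the wild-type residue. Both kinds were polyclonal pools selected with G418 and then for 10 days with α-amanitin, which blocks the endogenous polymerase, so the controls also lived on a recombinant subunit. The endogenous RPB1 gene remained in both, and the labels name no heat or other protein-damaging stress. The labels do not state separate cultures for the libraries of a group, so p-values reflect library-to-library spread alone, and this may be technical. In bulk RNA, fewer cells of a type and less RNA per cell cannot be told apart.

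HSP70 proteins bind exposed hydrophobic stretches of unfolded chains and release them in cycles of ATP hydrolysis. J-domain proteins such as DNAJB1 deliver the client and start hydrolysis, and HSP110 proteins exchange the nucleotide so that the client leaves. HSP90 takes over clients at a late folding stage, with help from cochaperones, and HSPD1 with its lid HSPE1 forms the folding chamber of the mitochondrial matrix. HSF1, the heat shock factor, binds heat shock elements in the promoters of many of these genes. HSPA8 and HSP90AB1 are the constitutive cytosolic forms and are abundant in growing cells, while HSPA1A and HSPA1B are the strongly inducible ones.

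Heat shock elements are repeats of GAA and its reverse complement TTC with 2 bases between, and they are shown here for the genes in which a run of 3 units stands in a RefSeq promoter window (GRCh38.p14, 250 bases before to 50 after each annotated start). The letters searched were GAANNTTC and TTCNNGAA for 2 units, each its own reverse complement. For 3 units they were GAANNTTC followed by NNGAA and TTCNNGAA followed by NNTTC, which are reverse complements of each other and contain the 2-unit letters. Each stretch is written 5′ to 3′ on the gene's strand, with the element in capitals.
HSP90AA1, chr14:102087112-102087140, minus strand: gagggttcTTCCGGAAGGTTCgggaggct
HSP90AB1, chr6:44247770-44247798, plus strand: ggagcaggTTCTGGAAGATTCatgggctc
HSP90AB1, chr6:44247823-44247851, plus strand: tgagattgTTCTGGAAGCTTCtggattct
HSPA8, chr11:123062346-123062374, minus strand: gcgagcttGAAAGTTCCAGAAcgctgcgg
HSPA8, chr11:123062171-123062199, minus strand: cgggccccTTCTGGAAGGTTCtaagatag
HSPD1, chr2:197500062-197500090, minus strand: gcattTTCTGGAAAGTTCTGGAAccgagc
All 10 genes matched the promoter table, with 16 windows. A 3-unit run stood in windows of 4 genes (HSP90AA1, HSP90AB1, HSPA8 and HSPD1) and a 2-unit run in those 4 and in HSPA1A, HSPA1B and DNAJB1. Counted by window, 4 of the 16 held a 3-unit and 8 a 2-unit run. Over all 35116 windows of that length, 0.490% held a 3-unit and 13.5% a 2-unit run. The capitals for HSPD1 cover 2 overlapping 3-unit runs. These are matches of letters only, and HSPA4, HSPE1 and HSPH1 had none in their windows. The HSPE1 window starts at chr2:197500129. The HSPD1 stretch, which ends at chr2:197500090, therefore lies just outside it.

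Of the 10 genes, 9 passed the filter on low counts and none differed between R1810A and WT at an adjusted p under 0.05 with edgeR's quasi-likelihood test. Over all 10674 genes tested, 0.347% were called higher and 0.00937% lower in R1810A. HSP90AB1 alone had an unadjusted p under 0.05, and it lay lower in R1810A, where the background at that limit was 3.06% of genes lower and 4.94% higher. DESeq2 called none of the 9 and found the same 1 lower gene at an unadjusted p under 0.05, and limma-voom called none and found HSP90AB1 and HSPA8 lower at that limit. Log2 fold changes ran from -0.35 to 0.25 with 6 negative and 3 positive, and their median was -0.11, against -0.0046 over all genes tested. The median was -0.20 without WT replicate 1, 0.0083 without WT replicate 2 and -0.23 with the deposited total reads as library size, so its sign rested on 1 WT library. In 4 genes (HSP90AA1, HSP90AB1, HSPA8 and HSPH1) both R1810A libraries lay below both WT libraries, and in 2 (HSPA4 and HSPD1) both lay above. Over all genes tested these shares were 19.5% and 19.8%.

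Together the 10 genes took 0.209% and 0.210% of all gene counts in the R1810A libraries, against 0.2203% and 0.234% in the WT libraries. Both R1810A shares lay below both WT shares, a difference of -0.018 percentage points (two-sided exact permutation p = 0.33, the smallest that 2 against 2 libraries allow). Depth was 2081636 and 2116444 counts in the R1810A libraries and 2326036 and 2991959 in the WT libraries. POLR2A, which codes for the replaced subunit, stood at 998 ± 64.4 CPM (counts scaled to library size with TMM factors) in R1810A and 865 ± 15.1 CPM in WT (SD, n = 2 each, adjusted p = 0.655), and its reads cannot be assigned to vector or endogenous copies. All 10 B cell markers checked were detected. Of 12 T, NK and myeloid markers 5 had no read, among them CD3D and CD2, and the rest apart from CSF1R summed to 19 and 20 reads in the R1810A libraries and 27 and 36 in the WT libraries. CSF1R, a myeloid growth factor receptor gene, had 508 and 324 reads in R1810A and 445 and 394 in WT.

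**Figure D1:**
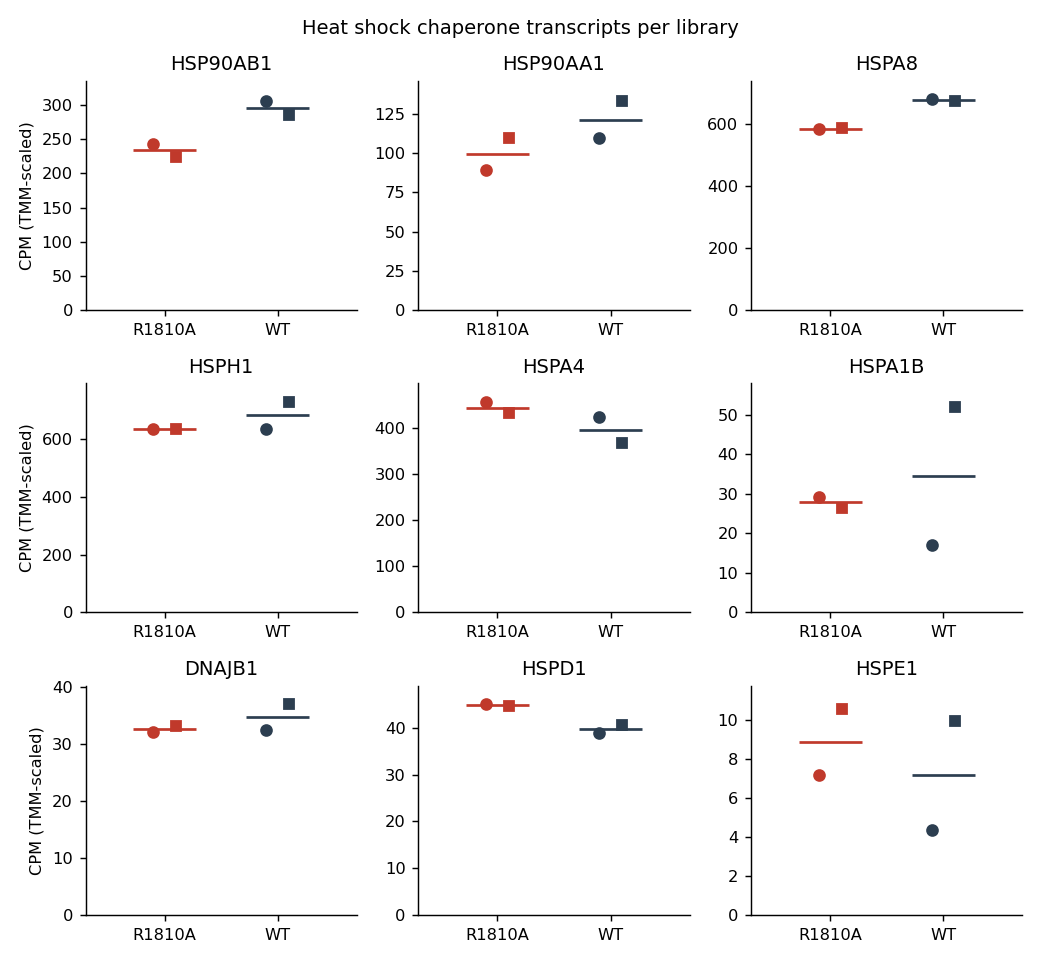
Levels of the 9 tested chaperone genes in depth-scaled read counts (CPM, TMM-scaled, linear axes from 0), R1810A left and WT right; circles are replicate 1, squares replicate 2, and bars the group means. HSP90AB1, HSPA8 and, narrowly, HSP90AA1 and HSPH1 have both R1810A libraries below both WT libraries, as had 19.5% of all genes tested. HSPA4 and HSPD1 have both above, as had 19.8%. HSPA1B spreads from 17.1 to 51.9 CPM within WT.

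The cytosolic HSP90 pair was lower in R1810A by size, without passing the test. HSP90AB1 (ENSG00000096384, chr6:44246166-44253888 on GRCh38), the constitutive HSP90 beta, had 507 and 467 reads in the R1810A libraries against 699 and 856 in the WT libraries. In CPM these were 243 and 225 in R1810A and 306 and 285 in WT. The groups did not overlap, and the gap between them was larger than either group's spread. The log2 fold change was -0.34 (SE 0.11, unadjusted p = 0.010, adjusted p = 0.407), which placed it at rank 274 of all genes by p. Over the 10 alternative settings tried its log2 fold change stayed between -0.46 and -0.29 with an adjusted p no lower than 0.147.

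HSP90AA1 (ENSG00000080824, chr14:102080738-102139699), the inducible HSP90 alpha, had 187 and 228 reads in R1810A against 251 and 400 in WT. Its CPM values were 89.7 and 109.7 in R1810A and 110.0 and 133 in WT. The highest R1810A library and the lowest WT library nearly touched, and replicate 2 was the higher one in both groups. The log2 fold change of -0.29 (SE 0.15, adjusted p = 0.654) was -0.45 without R1810A replicate 2 and -0.14 without WT replicate 2, and it did not pass in any setting.

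The constitutive HSP70 gene HSPA8 (ENSG00000109971, chr11:123057489-123063230), whose protein HSC70 also uncoats clathrin, had close values in the libraries of a group. It had 1212 and 1217 reads in R1810A against 1547 and 2024 in WT, or 581 and 586 CPM in R1810A against 678 and 674 CPM in WT. Means were 583 ± 3.02 CPM in R1810A and 676 ± 2.88 CPM in WT (SD, n = 2 each). The gap was many times the spread of the pairs, but 2 libraries measure a spread poorly and it may be technical. The test, which borrows its spread from all genes, put its log2 fold change at -0.21 (SE 0.10, unadjusted p = 0.063, adjusted p = 0.645). Leaving out any 1 library kept it between -0.22 and -0.21, and scaling by the deposited total reads gave -0.33, with the median of all genes at -0.13 under that scaling.

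The inducible HSP70 pair, HSPA1A (ENSG00000204389, chr6:31815464-31817946) and HSPA1B (ENSG00000204388, chr6:31827735-31830255), lies in the major histocompatibility region and codes for nearly the same protein. HSPA1A was listed at 0 reads in all 4 libraries. For assigned reads, 3 counts would allow up to 1.44 and 1.44 CPM in the R1810A libraries and 1.31 and 1.00 CPM in the WT libraries (counting error only). Of its 36-base transcript windows 72.8% also occur in HSPA1B, and the treatment of reads that match both is not given. These values therefore set no limit on HSPA1A expression, and the counts of HSPA1B may lack shared reads too. HSPA1B had 61 and 55 reads in R1810A and 39 and 156 in WT. Summing both genes therefore gave the values of HSPA1B alone. In CPM, HSPA1B stood at 29.3 and 26.5 in R1810A, between its WT values of 17.1 and 51.9. The log2 fold change of -0.35 (SE 0.39, adjusted p = 0.846) was 0.70 without WT replicate 2 (adjusted p = 0.433) and -0.90 without WT replicate 1 (adjusted p = 0.054), so the direction rested on which WT library was kept.

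The WT libraries differed 3.04-fold at HSPA1B. Among 4118 other tested genes with a mean of 40 to 160 reads, a range set after its values were seen, 3 had a ratio of WT replicate 2 to WT replicate 1 that large, and 9 had a difference that large in either direction. HSPE1 differed 2.28-fold in the same direction on 10 and 30 reads. HSP90AA1, HSPH1, DNAJB1 and HSPD1 were 1.21-fold, 1.15-fold, 1.14-fold and 1.04-fold higher in WT replicate 2, whereas HSPA8 differed 0.994-fold, HSP90AB1 0.930-fold and HSPA4 0.868-fold. In all, 6 of the 9 tested genes were higher in WT replicate 2 than in WT replicate 1. Within R1810A, 4 of the 9 were higher in replicate 2 than in replicate 1. The same share over all genes was not taken, so these counts describe the 9 genes and show no joint rise.

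HSPH1 and HSPA4, the HSP110 exchange factors, pointed in different directions. HSPH1 (ENSG00000120694, chr13:31134974-31162388) had 1324 and 1316 reads in R1810A against 1451 and 2189 in WT, or 635 and 633 CPM in R1810A against 636 and 729 CPM in WT. The lower WT library was level with the R1810A pair, so that the log2 fold change of -0.11 (SE 0.11, adjusted p = 0.837) was -0.01 without WT replicate 2. HSPA4 (ENSG00000170606, chr5:133051962-133106449) had 948 and 898 reads in R1810A against 964 and 1102 in WT, or 455 and 432 CPM in R1810A against 422 and 367 CPM in WT. Its R1810A libraries lay above its WT libraries by less than the distance between the WT pair (log2 fold change 0.17, SE 0.11, adjusted p = 0.725). This was 0.07 without WT replicate 2, 0.27 without WT replicate 1 and 0.05 with the deposited total reads.

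Ratios within a library do not depend on scaling but depend on the denominator, and they were set against both HSP110 genes, chosen after the values were seen. HSP90AB1 had 0.535 and 0.520 reads per HSPA4 read in R1810A against 0.725 and 0.777 in WT. It had 0.383 and 0.355 reads per HSPH1 read in R1810A against 0.482 and 0.391 in WT. The R1810A libraries lay lower without overlap for both denominators, by -0.51 and -0.24 on the log2 scale. HSPA8 had 1.28 and 1.36 reads per HSPA4 read in R1810A against 1.605 and 1.84 in WT. It had 0.915 and 0.9248 reads per HSPH1 read in R1810A against 1.07 and 0.9246 in WT, which overlap by a narrow margin. HSP90AA1 likewise did not overlap against HSPA4 and overlapped against HSPH1. HSPH1 itself had 1.40 and 1.47 reads per HSPA4 read in R1810A against 1.51 and 1.99 in WT, also lower without overlap. HSPA1B, DNAJB1, HSPD1 and HSPE1 overlapped against HSPA4. Of all other genes tested, 38.9% lay lower in R1810A without overlap against HSPA4 and 8.72% against HSPH1, so a lower ratio to HSPA4 was common among genes. None of the chaperones lay higher without overlap against HSPA4, where 6.53% of genes did. Against HSPH1, HSPA4 and HSPD1 lay higher, where 29% of genes did. The exact permutation p was 0.33 for each ratio without overlap, the smallest possible, and such a ratio shows unequal change of 2 genes, not which of them differed.

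DNAJB1 (ENSG00000132002, chr19:14514770-14529770), the main HSP40 partner of inducible HSP70, had 67 and 69 reads in R1810A and 74 and 111 in WT. In CPM these were 32.1 and 33.2 in R1810A against 32.4 and 36.95 in WT. The groups overlapped, and the log2 fold change was -0.09 (SE 0.19, adjusted p = 0.928).

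The mitochondrial chaperonin genes HSPD1 (ENSG00000144381, chr2:197486581-197516737) and HSPE1 (ENSG00000115541, chr2:197499994-197503457) stand head to head and share a promoter region. HSPD1 had 94 and 93 reads in R1810A against 89 and 122 in WT, or 45.1 and 44.7 CPM in R1810A against 39.0 and 40.6 CPM in WT. Its R1810A libraries lay above its WT libraries (log2 fold change 0.17, SE 0.16, adjusted p = 0.810, and 0.05 with the deposited total reads). HSPE1 had 15 and 22 reads in R1810A and 10 and 30 in WT, which is 0.25 on the log2 scale (SE 0.42, adjusted p = 0.908). Its sign turned without R1810A replicate 2 (-0.05) or without WT replicate 1 (-0.17). The annotation places HSPE1 and an end of MOB4 within or across HSPD1 on the opposite strand, and DNAJB1 and HSP90AA1 likewise overlap TECR and WDR20. The use of strand in counting is not given in the sources used here, so reads of these pairs may not be separated.

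**Figure D2:**
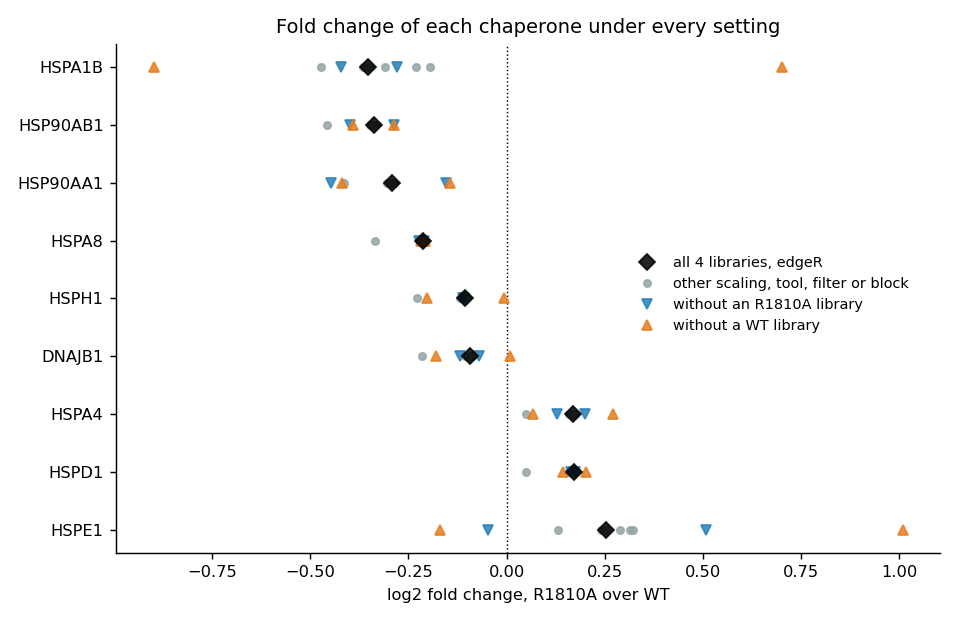
Log2 fold change (R1810A over WT) of each tested chaperone gene under the main test and the 10 alternative settings (diamonds, all 4 libraries with edgeR; triangles, 1 library left out; grey circles, other scaling, tool, filter or replicate block). HSP90AB1 and HSPA8 stay within -0.46 to -0.21, while HSPA1B and HSPE1 fall on both sides of 0 when a WT library is left out.

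Levels per length were compared with the authors' RPKM values, which are read counts scaled to gene length and total reads. HSPA8 stood highest, at 132 ± 2.16 RPKM in R1810A and 167 ± 0.965 RPKM in WT, followed by HSPH1 at 78.1 ± 1.84 RPKM in R1810A and 91.5 ± 8.67 RPKM in WT (SD, n = 2 each). HSPA4 (44.2 ± 2.55 RPKM) and HSP90AB1 (42.8 ± 3.31 RPKM) were not separated beyond their spread in R1810A. In WT, HSP90AB1 (58.8 ± 3.09 RPKM) lay above HSPA4 (42.8 ± 4.33 RPKM) in both libraries. HSP90AA1 came next at 12.5 ± 1.51 RPKM in R1810A and 16.6 ± 2.21 RPKM in WT. DNAJB1 at 7.48 ± 0.0112 RPKM, HSPA1B at 6.08 ± 0.562 and HSPD1 at 5.41 ± 0.145 RPKM followed in that order in R1810A, and the order was the same by mean in WT, where HSPA1B ran from 4.06 to 12.3 RPKM across both of its neighbours. HSPE1 was lowest of the detected genes, at 2.29 ± 0.571 RPKM in R1810A and 2.02 ± 1.11 RPKM in WT, although its product works in a complex with HSPD1. RPKM uses the deposited total reads as depth, so R1810A values sit lower against WT on this scale than in CPM.

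**Figure D3:**
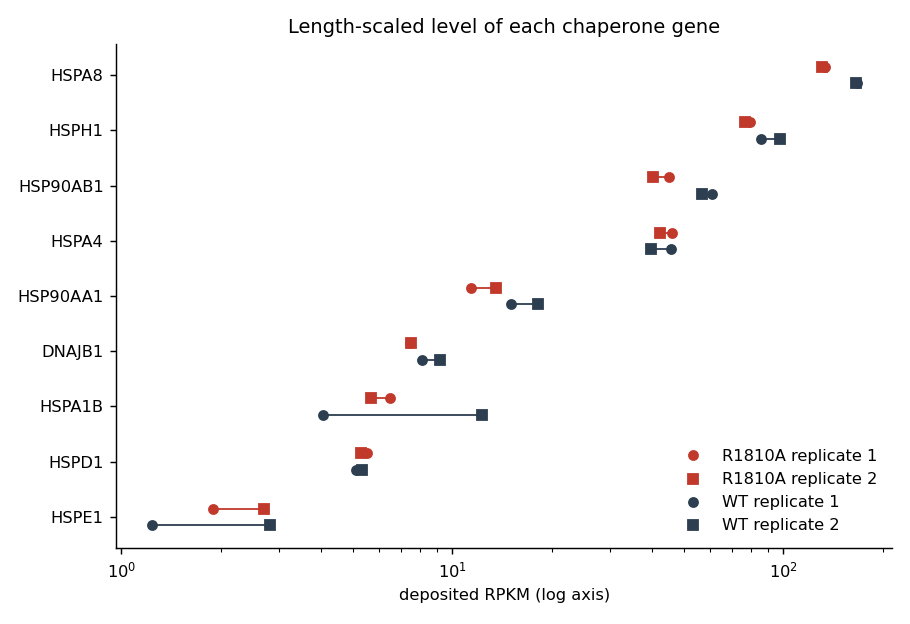
RPKM of the 9 detected chaperone genes on a log axis, R1810A above WT for each gene; circles are replicate 1, squares replicate 2, and lines join the libraries of a group. The levels span from HSPE1 at 1.23 RPKM to HSPA8 at 167 RPKM, and the WT values of HSPA1B cross those of DNAJB1 and HSPD1.

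How far reads of these genes can be placed was examined from GENCODE v29 transcripts, as the sources used here give neither the read length nor the treatment of reads with several matches. Of all distinct 36-base windows of HSPA1A and HSPA1B transcripts, 72.8% and 74.0% also occurred in a transcript of another gene. In each of the pair the other member alone accounted for 72.8% and 72.5%. That left 673 windows of HSPA1A and 647 of HSPA1B that occurred in no other gene. For HSP90AB1, HSPD1, HSPE1, HSP90AA1 and HSPA8 the shared portion was 28.99%, 27.6%, 25.6%, 24.2% and 17.4%. It was shared mostly with pseudogenes for all of these but HSPE1, which shares more with HSPD1 than with any other gene. The shared portion was 0.209% for HSPA4 and 0.0936% for HSPH1. Longer windows of 75 bases lowered it to 4.68% for HSP90AB1 and 1.20% for HSPA8, but only to 69.3% for HSPA1A. The part of shared sequence in the levels of these genes was not tested.

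Reads assigned to annotated pseudogene copies were counted by symbol. The 5 copies of HSP90AB1 had 79 and 57 reads in R1810A and 89 and 127 in WT, which was 15.6% and 12.2% of the reads of the gene itself in R1810A and 12.7% and 14.8% in WT. The 14 copies of HSPA8 had 118 and 146 reads in R1810A and 137 and 211 in WT, or 9.74% and 12.0% of the reads of HSPA8 in R1810A and 8.86% and 10.4% in WT. For HSP90AA1 the 5 copies held 16.0% and 13.2% in R1810A and 14.7% and 11.00% in WT. Copies of HSPD1 (13) and HSPE1 (17) had at most 6 reads in any library. The share of reads at copies of HSP90AB1 overlapped between the groups, as it did for HSP90AA1 and HSPA8.

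**Figure D4:**
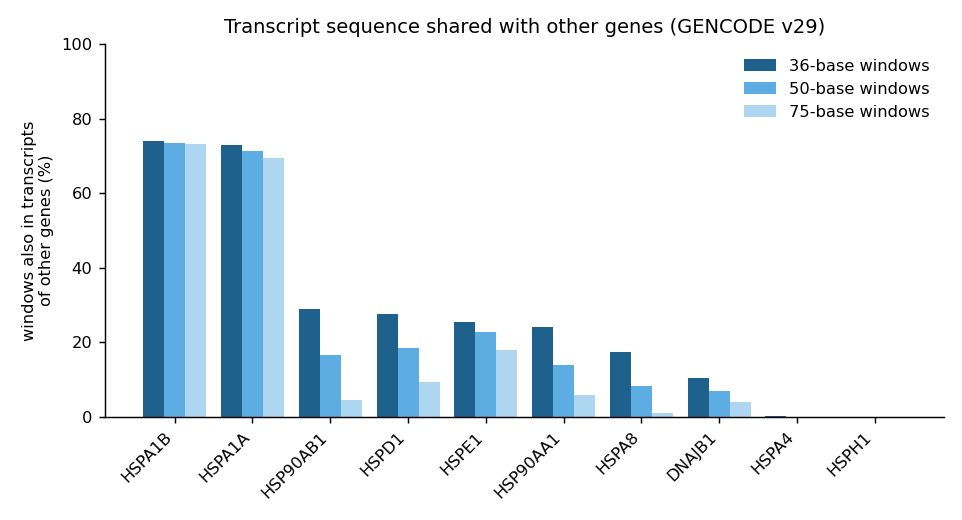
Percent of each gene's distinct transcript windows of 36, 50 and 75 bases that also occur, on either strand, in GENCODE v29 transcripts of other genes. HSPA1B and HSPA1A stand at 69% to 74% for every window length, HSPA4 and HSPH1 at or near 0.

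HSPA8 is also a host of small RNAs: its introns hold 3 copies of the box C/D snoRNA U14, a snoRNA that in yeast is needed to process small-subunit ribosomal RNA. No snoRNA is annotated inside HSP90AB1 in GENCODE v29. The 3 sequences (GRCh38, minus strand) are written as DNA from GENCODE v29 transcripts. They are shown because they were counted apart from the host and their summed reads were higher in R1810A, where the host was lower. Capitals mark the C box letters TGATGA and, where present, the D box letters CTGA, which SNORD14D lacks in that exact form.
SNORD14C, chr11:123059335-123059422: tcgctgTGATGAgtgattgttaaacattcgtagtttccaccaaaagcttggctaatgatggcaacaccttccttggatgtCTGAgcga
SNORD14D, chr11:123058909-123058995: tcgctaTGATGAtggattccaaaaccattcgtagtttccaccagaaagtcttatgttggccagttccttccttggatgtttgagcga
SNORD14E, chr11:123058077-123058161: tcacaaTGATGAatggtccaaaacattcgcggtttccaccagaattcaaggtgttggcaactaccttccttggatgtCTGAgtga
Identity between pairs in a global alignment was 79.1% for SNORD14D and SNORD14C, 78.7% for SNORD14E and SNORD14D and 75.6% for SNORD14E and SNORD14C.

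SNORD14D had 17 and 36 reads in R1810A against 5 and 5 in WT. SNORD14E had 17 and 11 in R1810A against 12 and 3 in WT, and SNORD14C, which did not pass the filter, 5 and 9 in R1810A against 0 and 5 in WT. Summed, the 3 snoRNAs had 39 and 56 reads in R1810A and 17 and 13 in WT, or 32.2 and 46.0 per 1000 HSPA8 reads in R1810A against 10.99 and 6.42 in WT. The log2 fold change was 2.71 for SNORD14D (SE 0.51, adjusted p = 0.061) and 1.21 for SNORD14E (SE 0.62, adjusted p = 0.654), while their host stood at -0.21. SNORD14E was at 0.35 without WT replicate 2 and 2.69 without WT replicate 1. SNORD14D missed the threshold with edgeR, DESeq2 (adjusted p = 0.081) and limma-voom (0.139), and passed in 4 of 10 settings: without R1810A replicate 1 (0.00063), with no filter (0.0015), with a replicate block (0.0094) and scaled to deposited total reads (0.049). The difference between host and snoRNA was not tested.

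No gene of the other chaperone lists was called by any of the 3 tools, and few of their genes had an unadjusted p under 0.05. Among HSP90 cochaperones 15 of 17 were tested, 11 of them with a negative log2 fold change, and the median was -0.07. Of all 10674 genes tested, 5400 had a negative log2 fold change. TOMM34, a cochaperone of mitochondrial import, had 350 and 365 reads in R1810A against 456 and 621 in WT (log2 fold change -0.24, SE 0.11, adjusted p = 0.621). STIP1, the adaptor HOP that links HSP70 to HSP90, had 505 and 504 reads in R1810A against 673 and 828 in WT (-0.23, SE 0.11, adjusted p = 0.623). Both had groups without overlap and were the 2 lower members of this list at an unadjusted p under 0.05, with 0 higher. Over all genes tested 3.06% were lower and 4.94% higher at that limit. Without overlap, 4 of the tested cochaperones lay lower in R1810A and 2 higher, against 19.5% and 19.8% of all genes.

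HSP70 exchange and regulatory factors had a median of 0.11 over 10 tested genes. Of them 1 was lower and 0 higher at the unadjusted limit, against 3.06% and 4.94% of all genes tested. That gene was HSPBP1, an HSP70 exchange factor, with 100 and 105 reads in R1810A against 149 and 191 in WT (log2 fold change -0.39, SE 0.15, adjusted p = 0.523). GRPEL1, the exchange factor of mitochondrial HSP70, stood at 0.20 (SE 0.15). Heat shock factors and HSF1-responsive genes had a median of -0.04 over 10 tested of 16. At that limit 2 were lower and 0 higher. These were DEDD2 at -0.40 (SE 0.18, adjusted p = 0.621) and STIP1, already counted among the cochaperones. HSF1 itself had 155 and 136 reads in R1810A against 178 and 228 in WT (-0.14, SE 0.14). Some genes of these lists had few or no reads, and those named here were picked after their values were seen. HSPA6, HSPB1 and SERPINH1 had no read in any library, and BAG3 had 3 and 1 reads in R1810A and 0 and 1 in WT. Of 8 small heat shock protein genes in the files, 6 had no read and none passed the filter.

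Other HSP70 and HSP90 genes had a median of 0.11 over 7 tested, with mitochondrial HSP70 (HSPA9) at 0.16 (SE 0.12) and mitochondrial HSP90 (TRAP1) at 0.33 (SE 0.28). J-domain proteins had a median of 0.03 over 34 tested, with 1 gene higher and 0 lower at an unadjusted p under 0.05. Over all genes tested 4.94% were higher and 3.06% lower at that limit. DNAJC17, which was not past that limit, stood at -0.72 (SE 0.38). The cytosolic chaperonin CCT and prefoldin, which fold actin and tubulin, had a median of 0.03 over 14, with PFDN5 at 0.24 (SE 0.12) and PFDN2 at -0.20 (SE 0.17). Mitochondrial folding and quality control genes had a median of 0.02 over 17, with the iron-sulfur cochaperone HSCB at 0.52 (SE 0.28) and the matrix protease CLPP at -0.19 (SE 0.11). Both of these lists had 0 genes at an unadjusted p under 0.05, as had the other HSP70 and HSP90 genes. With the deposited total reads as library size the medians of the other HSP70 and HSP90 genes, the exchange factors, the J-domain proteins, CCT and prefoldin, and the mitochondrial list turned to -0.01, -0.01, -0.09, -0.09 and -0.11, with all genes at -0.13. With 1 library left out, medians ran from -0.06 (without WT replicate 1) to 0.09 for the exchange factors, from -0.01 (without R1810A replicate 1) to 0.10 for CCT and prefoldin, and from -0.03 (without WT replicate 2) to 0.10 for the mitochondrial list. They ran from 0.05 to 0.21 for the other HSP70 and HSP90 genes and from 0.04 to 0.09 for the J-domain proteins. For the HSP90 cochaperones they ran from -0.11 to -0.06, and for the HSF1-responsive list from -0.08 to -0.02.

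**Figure D5:**
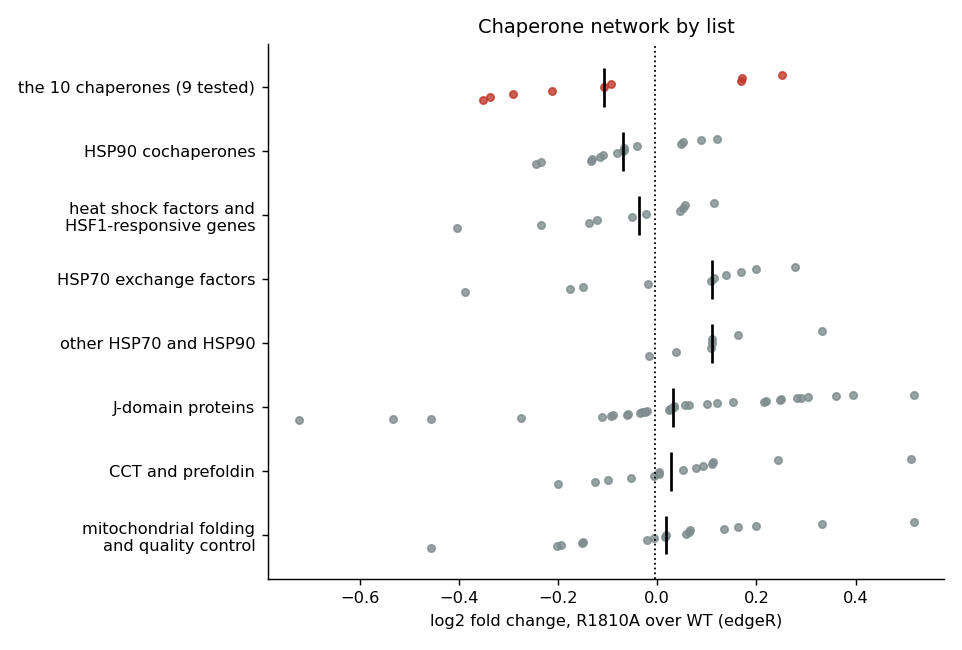
Log2 fold changes (R1810A over WT, edgeR) of the tested genes of each chaperone list; each circle is a gene, black bars are list medians and the dotted line is the median of all genes tested. The 9 tested chaperones have 6 values below 0 and a median of -0.11 (0.0083 without WT replicate 2), and no gene shown passed the threshold.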

How the data were processed

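Total RNA was depleted of ribosomal RNA (RiboMinus) and sequenced on an Illumina GAII, per the labels. Per the submitters' processing notes, reads were aligned with Bowtie to hg19; no version, counting program, annotation release or strand setting is given in the sources used here. The deposited counts are unnormalized whole numbers for each Ensembl gene, per the file headers, with 1 file per library. The authors' RPKM values equal those recomputed from the deposited counts, gene lengths and total reads within a relative tolerance of 0.0001. R 4.3.3 and its package edgeR 4.0.16 served for the main test (filterByExpr, TMM, glmQLFit and glmQLFTest, group as the only term, Benjamini-Hochberg adjustment over 10674 genes at 0.05), and DESeq2 1.42.0 and limma-voom (limma 3.58.1) were alternatives. The script was tested on simulated data. SEs are absolute log2 fold changes over the root of F. CPM values are TMM-scaled. Symbols and GRCh38 positions came from GENCODE v29 and a current name table, since no hg19 annotation was used here. All 10 chaperones were named. From each further list, genes past the threshold were named or, where none passed, the 2 of smallest p with a mean count of at least 20; genes with few reads and CSF1R were named after their values were seen. A gene that this rule names is not reported here. Members and lists were chosen with earlier results of these data known.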

Additional observations from a re-analysis of the deposited data

How the results depend on the processing

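None of the 9 tested chaperones passed the threshold in any of the 10 alternative settings of the test. Over all genes, 37 were called higher and 1 lower, against 24 higher with limma-voom, 2 lower with DESeq2, 5 lower with the deposited total reads, and 78 higher and 7 lower with no filter. With the replicate block the counts were 73 higher and 4 lower. Replicate 1 deviations of R1810A and WT had a correlation of -0.04 over genes. This shows no pairing by replicate number over genes as a whole, and pairing in a part of the genes was not tested. Leaving out 1 library gave 2 (without WT replicate 2) to 113 (without WT replicate 1) higher and 0 to 40 lower in the same libraries, with 37 and 5 without R1810A replicate 1 and 78 and 4 without R1810A replicate 2, the spread being taken from the intact pair. With a library left out, log2 fold changes ran from -0.90 to 0.70 for HSPA1B, alone or summed with HSPA1A, from -0.17 to 1.01 for HSPE1 and from -0.18 to 0.0083 for DNAJB1; the cause was not tested. The other 6 kept their sign in all settings, and the share of counts stayed lower in R1810A with every denominator and library left out. Counts were lowest for HSPE1 (10 to 30 reads) and the snoRNAs (0 to 36 reads).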
